A study of Mus musculus with 30 samples.

Results

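The circadian clock genes of the mouse lung were followed on oligonucleotide arrays through 4 lengths of exposure to low oxygen. The 10 genes are Arntl, Npas2, Nr1d1, Nr1d2, Per1, Per2, Cry1, Dbp, Tef and Hlf. Their members on the arrays are the probe sets whose annotation carries 1 of these symbols and no other. These are 18 probe sets of 10 genes, out of 15965 genes that have a probe set with a single symbol, with 11 probe sets on the array type called A, 5 on B and 2 on C. A total of 12 of the 18 passed the filter on dim probe sets, and these 12 cover all 10 genes.

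Whole lung RNA was measured in mice kept in a chamber at 10% oxygen, a treatment that raises pressure in the pulmonary arteries. The exposures lasted 10 h, 2 d, 4 d and 6 d, and the group set beside them is titled Norm. Every group held 2 samples, which the titles letter 1a and 1b, each hybridised to 1 array of each of 3 types. The labels give no strain, sex, age, genotype, lighting or hour of collection for any group, do not spell out Norm, and attach a note on rejection to it that the titles do not carry. They do not say that 1a and 1b are separate animals, so the spread behind each p-value is that of these samples and may be technical. In whole lung, fewer cells of a type and less RNA per cell cannot be told apart.

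The mammalian clock is a feedback loop of transcription. Arntl (BMAL1) pairs with CLOCK or with its relative Npas2, and the pair binds E-box sequences to switch on the Per and Cry genes, the nuclear receptors Nr1d1 and Nr1d2 (REV-ERB alpha and beta) and the output factors Dbp and Tef. PER and CRY proteins inhibit the pair, while the REV-ERB proteins repress Arntl and Npas2 through sites called ROREs, so in most tissues with a running clock, lung included, Arntl and Npas2 peak when Dbp, Nr1d1 and Per are low. Dbp, Tef and Hlf are transcription factors of the PAR bZIP family that bind D-box sequences and pass the rhythm to other genes. Arntl and Npas2 are called the positive limb below, and Nr1d1, Nr1d2, Per1, Per2, Dbp, Tef and Hlf the driven genes. Cry1 is kept apart because its peak falls between the limbs.

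Of the 30 arrays, 29 were used. The array titled Norm 1a of type A is filed with the B arrays and was left out, since its Spearman correlations with B arrays lay between -0.00277 and 0.00963. Type A therefore had 1 Norm array, and A comparisons with Norm borrow the spread of the other groups for it. The paired arrays of a group correlated at 0.872 to 0.971, and with so few arrays every value has limited precision. On A, the array 4 d 1b stood apart, correlating at 0.890 to 0.913 with the others, against 0.929 or more among the rest. RNA of the 2 d samples also stood apart, with a 3' to 5' signal ratio of the Gapdh control between 3.64 and 4.60 at 2 d, against 0.786 to 1.68 in all other groups, and of the Actb control between 3.64 and 4.98, against 0.0272 to 1.66. In the order in which arrays were deposited, 2 d and 6 d stand in one run and the 10 h, 4 d and Norm arrays in others, which no label calls a batch. Of 6 marker genes of alveolar type 2 cells, all but Sftpd were above the floor defined below on every array.

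The known control sequences of the loop were looked for in the window of 250 bases before to 50 after each annotated start (RefSeq, build GRCm38.p6), which 9 of the 10 genes have in the table used, as 12 windows. An E-box was searched as CACGTG, a RORE core as TAGGTCA or TGGGTCA, and a D-box as TTATGTAA or TTACGTAA, on both strands, and no motif overlapped another. The E-box was found in 4 of the 12 windows, those of Per1 start 1, Cry1 and both starts of Tef, against 7.15% of 32851 promoter windows of the genome. The RORE core was found in 1 window, that of Arntl start 2, against 6.45% of all windows, and the D-box in 0, against 1.06%. The sequences give, with the motif in capitals, 1 window with a match from the positive limb, 2 from the driven genes and that of Cry1, the 3 groups of genes whose levels are compared. Arntl start 2 lies at chr7:113207261-113207560 on the plus strand, Per1 start 1 at chr11:69098699-69098998 on the plus strand, Cry1 at chr10:85185005-85185304 on the minus strand and Tef start 2 at chr15:81811164-81811463 on the plus strand.
Arntl start 2 (RORE core in capitals): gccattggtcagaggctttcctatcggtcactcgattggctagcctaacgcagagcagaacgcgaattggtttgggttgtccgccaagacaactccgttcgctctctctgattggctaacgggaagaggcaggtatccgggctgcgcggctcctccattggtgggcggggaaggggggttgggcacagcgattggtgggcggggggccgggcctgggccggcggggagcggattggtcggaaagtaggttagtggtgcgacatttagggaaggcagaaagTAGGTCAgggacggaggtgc
Per1 start 1 (E-box in capitals): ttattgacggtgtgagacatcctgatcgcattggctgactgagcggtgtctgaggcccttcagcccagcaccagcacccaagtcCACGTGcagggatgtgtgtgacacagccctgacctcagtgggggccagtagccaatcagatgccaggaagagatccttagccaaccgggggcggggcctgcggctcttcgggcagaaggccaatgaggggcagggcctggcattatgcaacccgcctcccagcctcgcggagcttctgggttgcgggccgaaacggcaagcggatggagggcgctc
Cry1 start 1 (E-box in capitals): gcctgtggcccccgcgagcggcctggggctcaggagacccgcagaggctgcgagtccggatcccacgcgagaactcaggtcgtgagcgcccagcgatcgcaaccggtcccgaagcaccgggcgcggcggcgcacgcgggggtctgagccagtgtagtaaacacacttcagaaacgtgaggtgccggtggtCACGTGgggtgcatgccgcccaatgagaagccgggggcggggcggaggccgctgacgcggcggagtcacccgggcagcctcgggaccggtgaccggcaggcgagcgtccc
Tef start 2 (E-box in capitals): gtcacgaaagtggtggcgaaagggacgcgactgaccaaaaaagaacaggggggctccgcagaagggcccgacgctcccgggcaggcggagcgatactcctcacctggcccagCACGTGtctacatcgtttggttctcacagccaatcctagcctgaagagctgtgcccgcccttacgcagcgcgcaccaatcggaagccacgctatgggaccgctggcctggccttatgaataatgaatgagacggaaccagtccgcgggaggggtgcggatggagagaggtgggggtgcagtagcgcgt

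**Figure D1:**
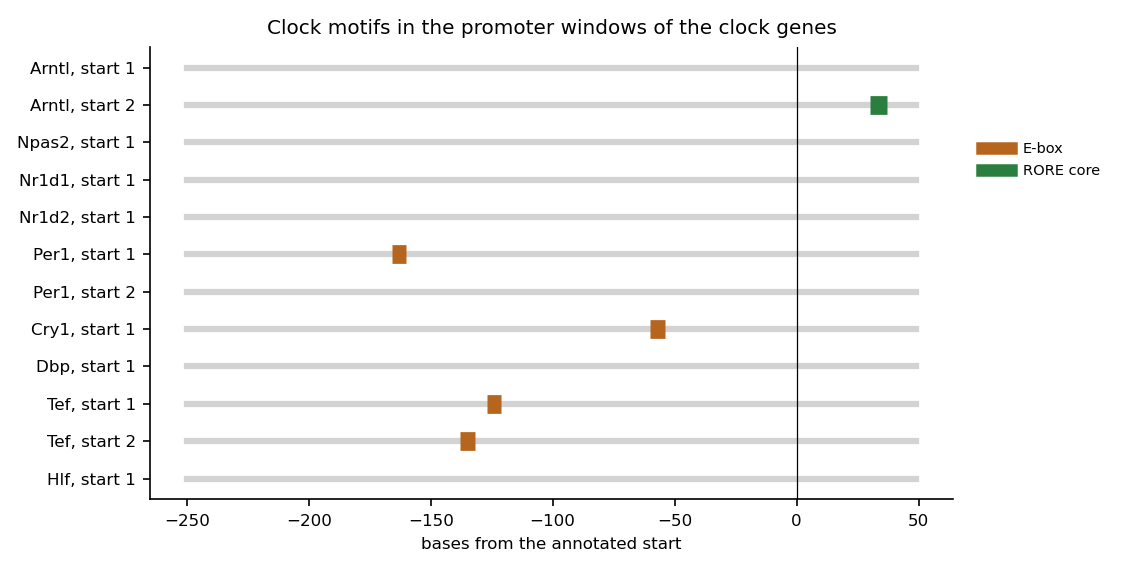
Position of E-box (brown) and RORE core (green) matches in the 12 promoter windows of 9 clock genes, with the distance in bases from the annotated start on the horizontal axis and a row for each start. E-boxes lie before the start in Per1, Cry1 and Tef (first bases at -166, -60, -127 and -138), and the RORE core of Arntl lies after it, from base 30 to 36.

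Values below are deposited array intensities on a linear scale. A difference is in log2 units, with its standard error (SE) from a limma fit over the 5 groups. Before log2 was taken, intensities under a floor were raised to it, at 236 on A, 297 on B and 201 on C. A call means an adjusted p under 0.05 over all 25801 probe sets tested. Where arrays on the lower side of a difference were raised to the floor, its size is a lower bound, and arrays set to the same floor show no spread. Levels of different probe sets are not comparable with each other.

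The positive limb was dimmest after 10 h and brightest after 2 d. Arntl (102382_at, A) had intensities of 293 and 181 at 10 h, 885 and 634 at 2 d, 616 and 433 at 4 d, and 688 and 594 at 6 d, against 435 on the Norm array. Both 10 h arrays lay below every other array, 1 of them under the floor, and both 2 d and both 6 d arrays lay above Norm, while the 4 d pair straddled it. Npas2 (166586_i_at, C), whose suffix marks a probe set with fewer unique probes than usual, gave 253 and 205 at 10 h, 726 and 655 at 2 d, 18 and 493 at 4 d, and 646 and 575 at 6 d, against 457 and 418 in Norm. Apart from the 4 d 1a array, which lay under the floor, Npas2 followed the order of Arntl, with the 10 h arrays lowest and the 2 d arrays highest.

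At 10 h the log2 level of Arntl was at least 1.26 ± 0.24 below the mean of 2 d, 4 d and 6 d (at least 2.39-fold, adjusted p = 0.0660), and that of Npas2 1.16 ± 0.39 below it (2.24-fold, adjusted p = 0.213), with 4 d 1a raised to the floor. Neither difference was called. Against Norm, Arntl differed by -0.73 ± 0.37 at 10 h and by 0.79 ± 0.37 at 2 d (adjusted p = 0.881 and 0.296), and Npas2 by -0.94 ± 0.47 and 0.66 ± 0.47 (adjusted p = 0.876 and 0.497). The second probe set of each gene (Arntl 164698_at on B, 10 to 105 over the arrays, and Npas2 95390_at on A, 17 to 34) stayed under the floor on every array and was not tested.

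**Figure D2:**
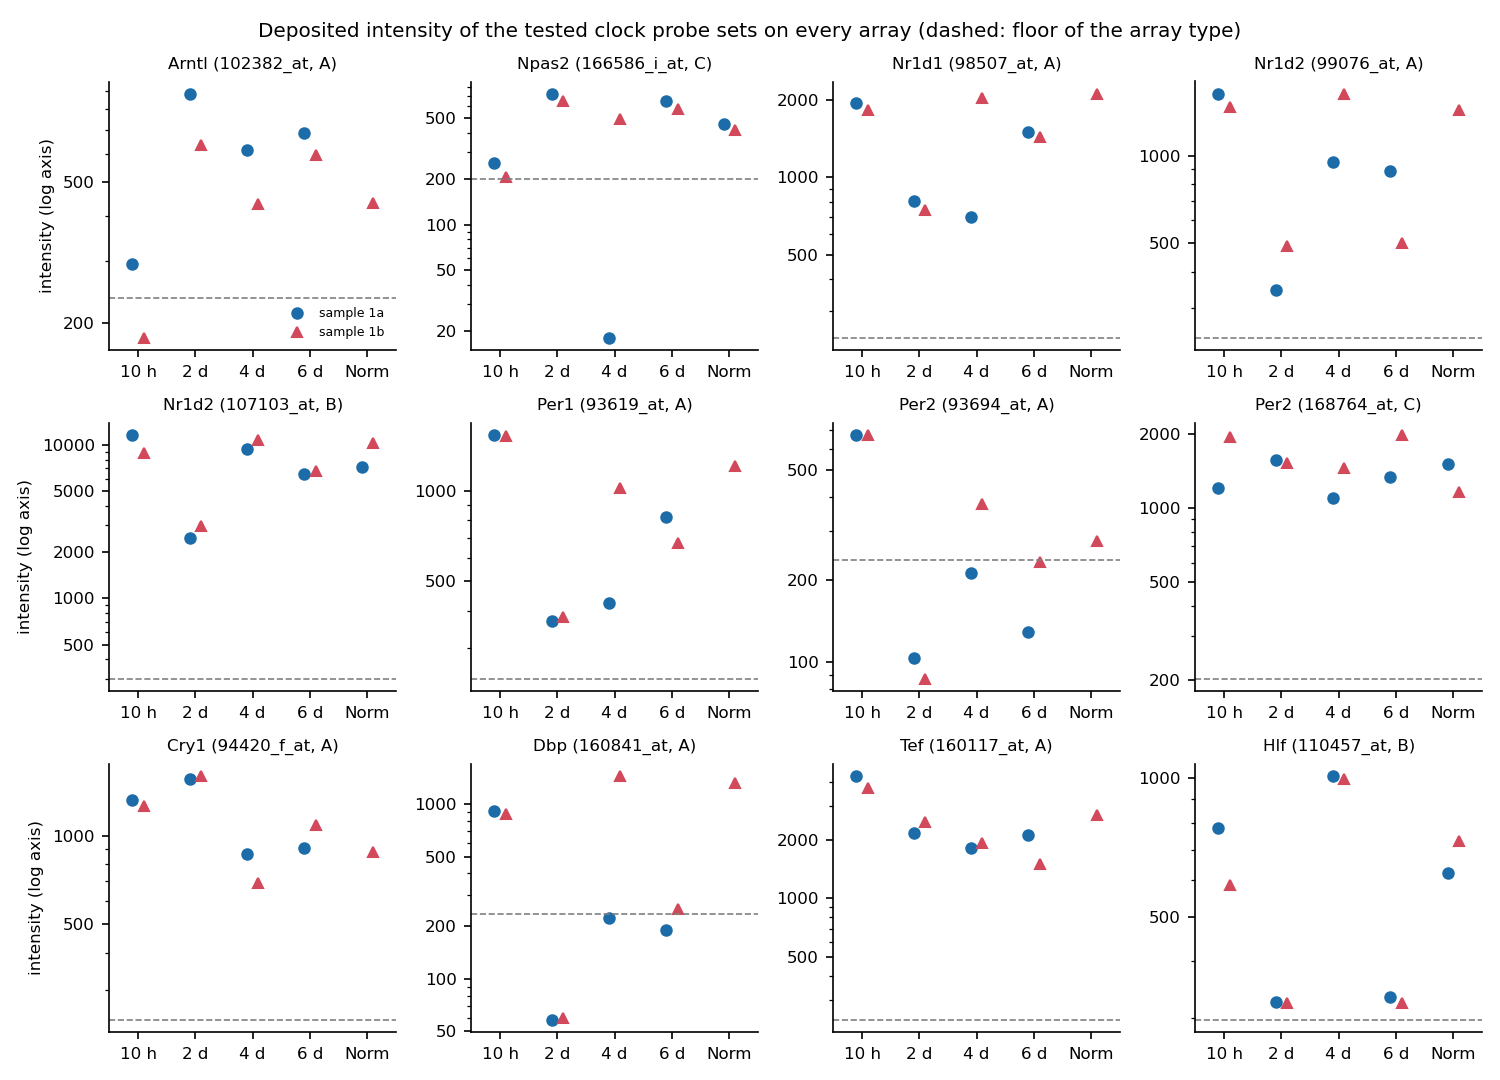
Deposited intensity (log axis, a scale for each panel) of the 12 tested clock probe sets on every array, with exposure on the horizontal axis, circles for sample 1a, triangles for sample 1b and the floor of the array type dashed. Arntl is lowest at 10 h (293 and 181) and highest at 2 d (885 and 634), while Dbp is at 58 and 60 at 2 d, against 1322 in Norm, and the 4 d samples of Dbp (222 and 1450) lie far apart.

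The REV-ERB genes ran the other way, with their lowest levels at 2 d. Nr1d2 (107103_at, B), one of the 2 repressors of Arntl, gave 11611 and 8887 at 10 h, 2458 and 2954 at 2 d, 9351 and 10794 at 4 d, and 6449 and 6771 at 6 d, against 7128 and 10223 in Norm. The 2 d arrays lay below all others, and the 6 d arrays lay next to them, also below both Norm arrays. Nr1d2 fell at 2 d by 1.66 ± 0.22 on the log2 scale relative to Norm (3.17-fold, adjusted p = 0.0203), and it was also called in the F test for any difference among the 5 groups (adjusted p = 0.0202), a call that 9 of 20 alternatives ended (adjusted p up to 0.583). The 2 d call ended when only the 2 d and Norm arrays were fitted (adjusted p = 0.188) and when any single 10 h, 2 d or 6 d sample was left out (0.0527 to 0.0932). A second probe set of the gene on another array type, 99076_at on A, gave 1623 and 1466 at 10 h, 346 and 488 at 2 d, 952 and 1632 at 4 d, and 886 and 501 at 6 d, against 1431 in Norm. It showed the same low point, with a 2 d difference of -1.80 ± 0.43 that was not called (adjusted p = 0.0745).

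Nr1d1 (98507_at, A), the other repressor, gave 1948 and 1833 at 10 h, 807 and 748 at 2 d, 698 and 2038 at 4 d, and 1500 and 1438 at 6 d, against 2117 in Norm. All 8 hypoxia arrays lay below the Norm array, and the lowest were both 2 d arrays and 4 d 1a. Its 2 d difference from Norm was -1.45 ± 0.50 (2.73-fold, adjusted p = 0.166), which was not called.

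Among the output factors, Dbp showed the widest swing. Dbp (160841_at, A) had intensities of 908 and 875 at 10 h, 58 and 60 at 2 d, 222 and 1450 at 4 d, and 191 and 250 at 6 d, against 1322 in Norm. Both 2 d arrays lay far under the floor of 236, 4 d 1a and 6 d 1a just under it, and 6 d 1b just above. Dbp was at least 5.60-fold lower at 2 d than in Norm, a bound because the 2 d arrays were set to the floor, and the log2 difference of -2.49 ± 0.83 was not called (adjusted p = 0.156). At 6 d the fitted difference was -2.44 ± 0.83 (adjusted p = 0.415) with 6 d 1a at the floor, although the intensities at 2 d lay below those at 6 d.

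Hlf (110457_at, B) had intensities of 781 and 587 at 10 h, 325 and 325 at 2 d, 1014 and 996 at 4 d, and 334 and 324 at 6 d, against 623 and 731 in Norm. The 2 d and 6 d arrays lay together just above the floor of 297, well below the other 6 arrays, and the 4 d arrays were the highest. The F test called a difference among the groups (adjusted p = 0.0287), which 12 of 20 alternatives ended (adjusted p up to 0.263), while the single comparisons of 2 d (-1.05 ± 0.23, adjusted p = 0.0531) and 6 d (-1.04 ± 0.23, adjusted p = 0.237) with Norm were not called. Tef (160117_at, A) had intensities of 4290 and 3720 at 10 h, 2181 and 2465 at 2 d, 1810 and 1931 at 4 d, and 2123 and 1504 at 6 d, against 2693 in Norm. The 10 h arrays stood above every other array, and the other 6 hypoxia arrays stood below Norm. At 10 h Tef rose by 1.01 ± 0.15 relative to the mean of 2 d, 4 d and 6 d (2.02-fold, adjusted p = 0.0401), though 13 of 21 alternatives ended the call (adjusted p up to 0.229).

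Of the genes for the PER inhibitors of the ARNTL pair, Per1 and the A probe set of Per2 were highest at 10 h, and the C probe set of Per2 was not. Per1 (93619_at, A) gave 1542 and 1529 at 10 h, 370 and 379 at 2 d, 423 and 1027 at 4 d, and 822 and 670 at 6 d, against 1209 in Norm. The 10 h arrays were the highest and all 6 arrays of the longer exposures lay below Norm. Per1 stood 1.43 ± 0.31 above the mean of 2 d, 4 d and 6 d at 10 h (2.70-fold, adjusted p = 0.0838) and 1.69 ± 0.46 below Norm at 2 d (3.23-fold, adjusted p = 0.0982), and neither was called. A second probe set of Per1 (115947_at, B) stayed under the floor on every array, at 36 to 289.

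Per2 (93694_at, A) had intensities of 674 and 674 at 10 h, 103 and 87 at 2 d, 211 and 376 at 4 d, and 129 and 231 at 6 d, against 277 in Norm. Only 4 of its 9 arrays were above the floor, both 10 h arrays, 4 d 1b and Norm. At 10 h Per2 rose by at least 1.40 ± 0.20 relative to the mean of 2 d, 4 d and 6 d (at least 2.64-fold, adjusted p = 0.0354), and 10 of 20 alternatives ended this call (adjusted p up to 0.210). Another Per2 probe set, 168764_at on C, went with no group. It gave 1201 and 1954 at 10 h, 1574 and 1531 at 2 d, 1097 and 1453 at 4 d, and 1339 and 1988 at 6 d, against 1508 and 1161 in Norm, and its difference at 10 h from the longer exposures was 0.06 ± 0.25 (adjusted p = 0.939). The probe sets of Per2 thus disagreed.

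Cry1, the second kind of inhibitor in the loop, followed neither limb. Cry1 (94420_f_at, A, with a suffix for shared probes) gave 1327 and 1264 at 10 h, 1565 and 1600 at 2 d, 867 and 691 at 4 d, and 908 and 1088 at 6 d, against 882 in Norm. It was high at both 10 h and 2 d, with no overlap with the later times or with Norm. Cry1 differed from Norm by 0.55 ± 0.23 at 10 h and by 0.84 ± 0.23 at 2 d (adjusted p = 0.790 and 0.100), and the mean of 4 d and 6 d was 0.71 ± 0.13 below the mean of 10 h and 2 d (adjusted p = 0.158). None of these was called. The remaining Cry1 probe sets (161225_r_at, 1 to 19, and 94421_r_at, 3 to 62) and Tef 113798_at on B (24 to 374) were not tested, Tef 113798_at being above the floor on 1 array.

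Read against Norm, the clock probe sets differed most at 2 d. Of the 12 tested, 1 was called (Nr1d2, which fell), against 1.86% of all probe sets in that comparison and 1.09% that fell. At an unadjusted p under 0.05 there were 7 of 12, against 18.9% of all probe sets. Of these 6 were lower (Dbp, Nr1d1, Per1, Hlf and both Nr1d2 probe sets), against 9.85% of all, and 1 was higher (Cry1), against 9.0%. On all 12 both 2 d arrays lay on 1 side of every Norm array, 4 above and 8 below, as did 58.6% of all probe sets. These shares are not directly comparable, because type A has a single Norm array to clear and B and C have 2. Type A holds 8 of the 12, against 8392 of all 25801. The median difference of the 12 was -0.64, against 0.0 over all probe sets. At 6 d limma called 0 of 12 (0.0% of all), with 4 at an unadjusted p under 0.05, all lower (Nr1d2 on A, Dbp, Tef and Hlf), against 9.17% of all and 4.82% lower. At 10 h it called 0 of 12 (0.0% of all), with 3 at an unadjusted p under 0.05, all higher (Per2 on A, Cry1 and Tef), against 6.11% of all and 3.21% higher. At 4 d it called 0 of 12 (0.00775% of all), with Hlf higher and Tef lower at an unadjusted p under 0.05, against 6.13%. The 4 comparisons share the same Norm arrays.

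**Figure D3:**
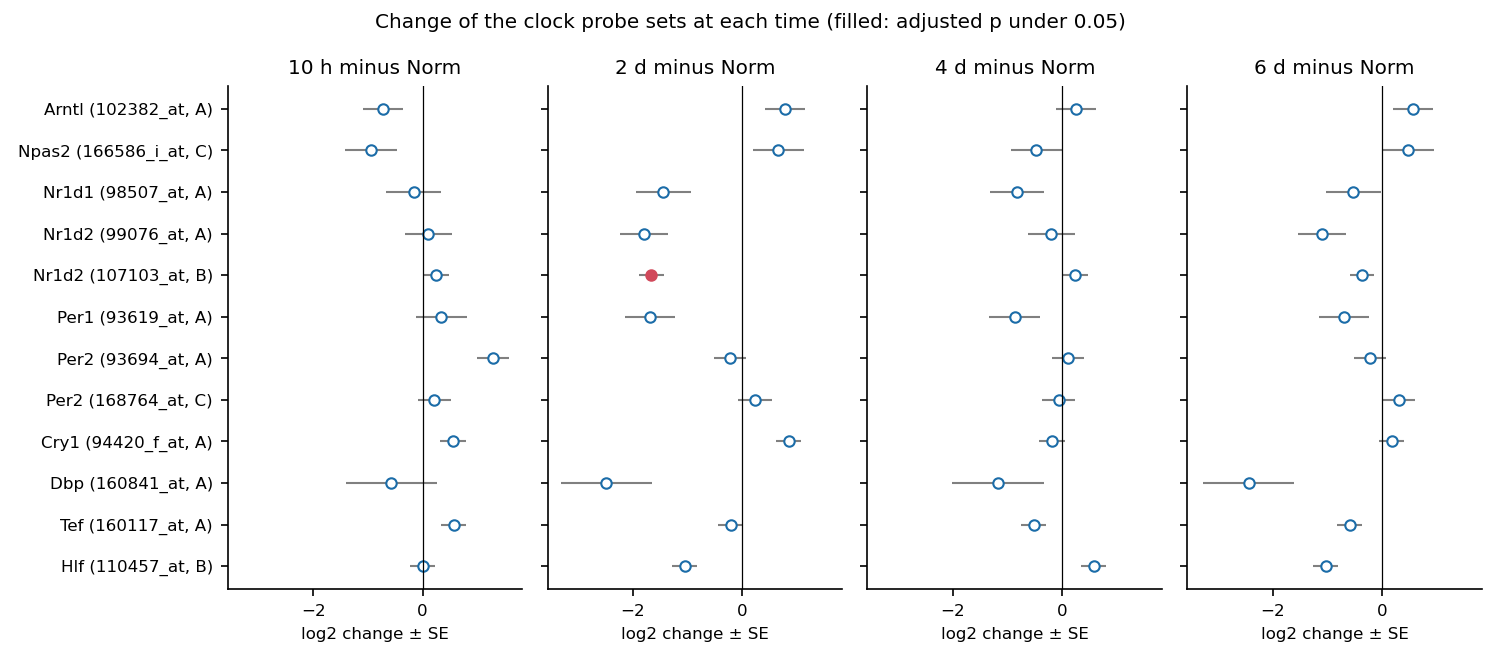
Log2 difference from Norm (horizontal axis, with SE bars) of the 12 clock probe sets at 10 h, 2 d, 4 d and 6 d, filled where the adjusted p is under 0.05. The filled point is Nr1d2 (107103_at) at 2 d, at -1.66, and at 2 d Arntl (0.79) and Npas2 (0.66) lie on the opposite side of 0 from Dbp (-2.49), Per1 (-1.69) and Nr1d1 (-1.45).

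The 2 d comparison also crossed differences that are not of the clock. The Gapdh ratio given above was raised on all 2 d arrays. Among markers of other tissues and cells, 4 of 9 heart muscle genes fell at 2 d (median -0.97). The share of all probe sets that fell was 1.09%, for this and the lists that follow. The summed heart muscle intensity on A was 14233 and 13127 at 2 d, against 24657 in Norm. Ciliated airway genes fell in 3 of 7 (median -1.01), with sums on C of 4792 and 3848 at 2 d, against 9751 and 12257 in Norm. Of the skeletal muscle genes 2 of 10 fell (Acta1 at -2.72 and Myh1 at -1.28, with a list median of -0.65), with sums on A of 3838 and 3987 at 2 d, against 10870 in Norm. Of 4 club cell genes 1 fell (Cyp2f2, at -2.03), with a list median of -0.15 and sums on A of 42348 and 49418 at 2 d, against 27691 in Norm. Red cell genes were called in 0 of 3 by limma, against 1.86% of all probe sets in either direction. At an unadjusted p under 0.05 there were 2 of 3, against 18.9% of all. The median of the red cell list was 1.40, with sums on A of 35955 and 47027 at 2 d, against 16590 in Norm. No tested marker of these lists was at 0 on any array. The part of RNA quality, of these cells and of the run of deposit in the clock differences was not tested. At 6 d the Gapdh ratio was 1.40 to 1.68, against 0.815 to 1.51 in Norm, and the Actb ratio 0.474 to 1.66, against 0.0453 to 0.926 in Norm. Heart muscle genes then had a median of -0.75 relative to Norm, with 0 of 9 called by limma, against 0.0% of all probe sets. At an unadjusted p under 0.05 there were 6 of 9, against 9.17% of all. Heart and skeletal muscle genes were also lower than Norm at 10 h, with medians of -0.77 and -0.91 and 0 called (0.0% of all). At 4 d these medians were -0.325 and 0.19. Skeletal muscle sums on A were 2240 and 1842 at 10 h. The heart and skeletal muscle sums of the single A array of Norm were above those of all hypoxia arrays. Nr1d2 on B differed from Norm by -0.37 ± 0.22 at 6 d.

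The contrast of 10 h with the exposures of 2 d, 4 d and 6 d uses no Norm array. It sets a time that is not a whole number of days against 3 that are, with the hour of collection unknown. It also crosses runs of deposit, since 2 d and 6 d stand in another run than 10 h. The Gapdh ratio was 3.64 to 4.60 at 2 d, against 0.786 to 1.11 at 10 h. In this contrast 2 of the 12 were called, Per2 on A and Tef, which rose, against 0.651% of all probe sets called and 0.477% that rose. At an unadjusted p under 0.05 there were 10 of 12, against 14.8% of all probe sets. At 10 h 8 were higher (Per1, Per2 on A, Tef, Dbp, Hlf, Nr1d1 and both Nr1d2 probe sets), against 7.92% of all, and 2 were lower (Arntl and Npas2), against 6.86%. The differences of the driven genes ranged from 0.51 ± 0.18 for Hlf to at least 1.47 ± 0.56 for Dbp, leaving aside Per2 on C. The median of the 12 was 0.81, against -0.01 over all probe sets. On 4 of the 12 both 10 h arrays lay beyond all 6 arrays of the longer times, Per1, Per2 on A and Tef above and Arntl below, as did 12.7% of all probe sets. In the F test 2 of the 12 were called (Nr1d2 on B and Hlf), against 1.24% of all, and 10 had an unadjusted p under 0.05, against 19.6%.

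Markers of other cells were also called in the contrast of 10 h with the longer exposures, where 0.477% of all probe sets rose and 0.651% were called in either direction. Of 5 smooth muscle genes 1 rose (Cnn1, by 1.58), with a list median of 0.57 and sums on A of 23342 and 27724 at 10 h, against 13225 to 27433 at 2 d, 4 d and 6 d. Of 7 ciliated airway genes 1 rose (Ak7, by 1.39), with a list median of 0.22 and sums on C of 9978 and 9027 at 10 h, against 3848 to 7988. Of 10 skeletal muscle genes 1 fell (Acta1, at -2.52), with a list median of -0.30 and sums on A of 2240 and 1842 at 10 h, against 3689 to 9383. The part of these cells, of RNA quality and of the run of deposit in this contrast of the clock genes was not tested.

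Without the 2 d arrays, a setting chosen after seeing the data, limma called 0 of the 12 in the contrast of 10 h with 4 d and 6 d, and 0.00388% of all 25801 probe sets. The differences were then at least 1.35 ± 0.22 for Per2 on A, 1.13 ± 0.17 for Tef, 1.13 ± 0.37 for Per1 and at least 1.13 ± 0.24 below for Arntl, while Nr1d2 on B (0.32 ± 0.21) and Hlf (0.24 ± 0.18) were closer to 0 than with the 2 d arrays. Without the 4 d arrays, also chosen after seeing the data, it called 6 of the 12, against 2.24% of all probe sets. Of these, Per2 on A (at least 1.51 ± 0.08) had all 2 d and 6 d arrays at the floor, and Dbp (at least 1.90 ± 0.13) all but 1. The others were Per1 (1.54 ± 0.14), Nr1d1 (0.82 ± 0.09), Nr1d2 on B (1.27 ± 0.20) and Hlf (1.05 ± 0.18). All 6 were higher at 10 h. The 4 d pair lay far apart for Dbp, Nr1d1 and Per1, so leaving it out also lowered the SE, for Dbp from 0.56 to 0.13. Arrays set to the same floor add no spread. Tef, at 0.97 ± 0.17, was then not called (adjusted p = 0.0612), nor were Arntl (-1.40 ± 0.21, adjusted p = 0.0504) and Npas2 (-1.51 ± 0.31, adjusted p = 0.0578). In the same setting 4 of the 12 fell at 2 d relative to Norm (Dbp, Per1, Nr1d1 and Nr1d2 on B), against 0.996% of all probe sets called in either direction.

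**Figure D4:**
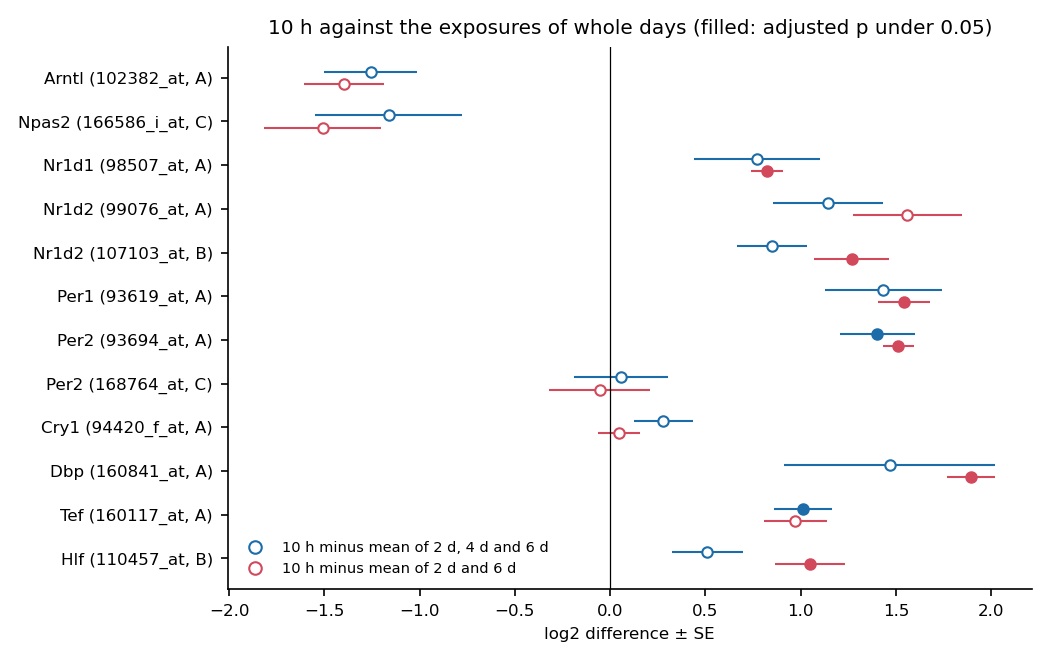
Log2 difference (horizontal axis, with SE bars) of 10 h from the mean of 2 d, 4 d and 6 d (blue) and from the mean of 2 d and 6 d with the 4 d arrays left out (red), for the 12 clock probe sets, filled where the adjusted p is under 0.05. Arntl and Npas2 lie left of 0 and 8 probe sets of driven genes right of it in both, with 2 filled in blue and 6 in red.

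Comparisons within a run of deposit were called for 0 of the 12 by limma. Between 4 d and 10 h, where 0.0233% of all probe sets were called, 6 had an unadjusted p under 0.05 (8.08% of all), with Arntl (0.97 ± 0.30) and Hlf (0.57 ± 0.23) higher at 4 d and Per1 (-1.22 ± 0.38), Per2 on A (-1.18 ± 0.24), Tef (-1.10 ± 0.19) and Cry1 (-0.74 ± 0.19) lower. Between 6 d and 2 d, where 0.062% were called, 3 had an unadjusted p under 0.05 (13.0% of all), with Nr1d2 on B (1.29 ± 0.22) and Per1 (0.99 ± 0.38) higher at 6 d and Cry1 (-0.67 ± 0.19) lower. Late against early, the mean of 4 d and 6 d minus that of 10 h and 2 d, gave 0 calls (0.0155% of all) and 4 at an unadjusted p under 0.05 (11.0% of all), Nr1d2 on B higher and Tef, Cry1 and Per2 on A lower. The mean of all hypoxia groups minus Norm gave 0 calls (0.0% of all) and 1 at an unadjusted p under 0.05 (7.79% of all), Dbp at -1.67 ± 0.72, with 4 hypoxia arrays at the floor.

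The limbs were set against each other sample by sample on the A arrays, as the log2 level of Arntl minus the mean of Nr1d1, Nr1d2, Dbp, Tef, Per1 and Per2, with each probe set first centred on the mean of the groups. This index was -1.56 and -1.79 at 10 h, 1.70 and 1.12 at 2 d, 0.98 and -0.69 at 4 d, and 0.78 and 0.83 at 6 d, against -0.69 in Norm. Relative to the means of the groups, the driven genes stood above Arntl at 10 h and in Norm, and Arntl stood above them at 2 d and 6 d. Because of the centring, the sign orders the groups and does not say which limb had more RNA. On A the 4 d samples fell on opposite sides, 1a beside the 6 d arrays and 1b beside the Norm array. The mean index was -1.67 ± 0.16 at 10 h, 1.41 ± 0.41 at 2 d, 0.15 ± 1.18 at 4 d and 0.80 ± 0.04 at 6 d (SD, n = 2 each). Over the probe sets of A, B and C together, with Npas2 in the positive limb, the index was -1.39 and -1.63 at 10 h, 1.62 and 1.22 at 2 d, -0.036 and -0.48 at 4 d, and 0.85 and 0.77 at 6 d, against 0.022 in Norm 1a (no A array) and -0.51 in Norm 1b. The split of the 4 d samples was therefore not seen in the index over all types. The driven genes in it still stood apart, at -0.33 on 4 d 1a and 0.51 on 4 d 1b. The positive limb moved the same way, at -0.37 and 0.025, with Npas2 under the floor on 4 d 1a. On C alone, Npas2 against the C probe set of Per2, the index turned, at -0.66 for 4 d 1a and 0.23 for 4 d 1b. B holds no tested probe set of the positive limb. These values describe the arrays and carry no test.

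**Figure D5:**
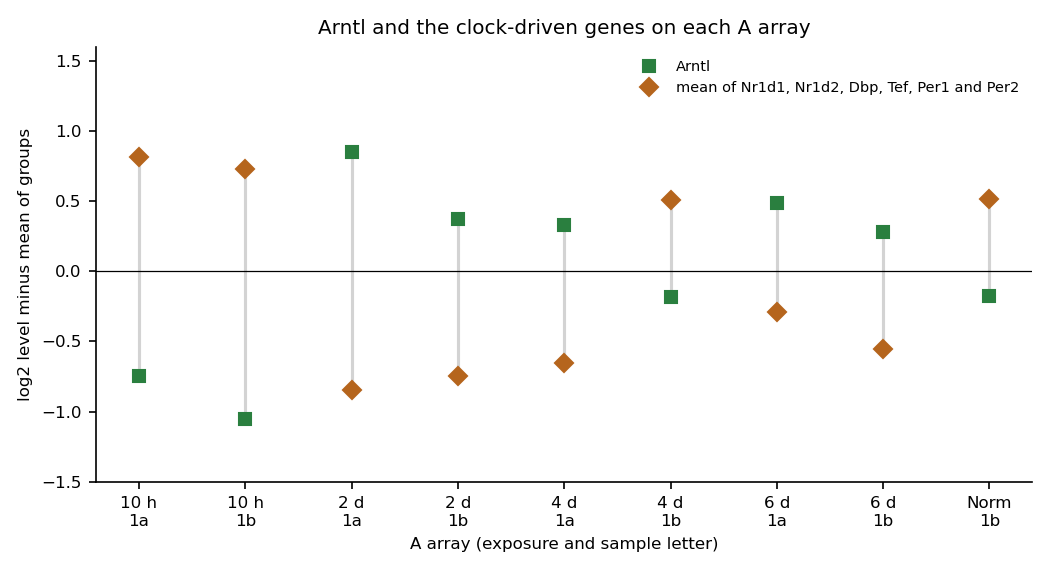
Log2 level of Arntl (green squares) and the mean of 6 driven genes (brown diamonds), each centred on the mean of the groups, on the 9 A arrays. The driven genes lie above Arntl at 10 h, on 4 d 1b and in Norm, and below it at 2 d, at 6 d and on 4 d 1a.

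The difference within the 4 d pair depended on the array type. On A, 4 d 1b exceeded 4 d 1a by 6.53-fold for Dbp, 2.92-fold for Nr1d1, 2.43-fold for Per1, 1.78-fold for Per2 and 1.71-fold for Nr1d2, and Arntl was 1.42-fold brighter on 1a. Tef differed by 1.07-fold. On B, the same samples differed by 1.15-fold for Nr1d2 and still less for Hlf (1014 and 996), and both lay at the level of the 10 h and Norm arrays or above. On C, Npas2 was under the floor on 4 d 1a and at 493 on 4 d 1b. For comparison, the higher of the 10 h arrays exceeded the lower by at most 1.15-fold for the driven genes on A. For the 2 d arrays this was at most 1.41-fold, for Nr1d2. The 6 d arrays differed by 1.77-fold for Nr1d2 and by 1.80-fold for Per2, whose 6 d arrays lay under the floor. These 2 gaps were as wide as those of the 4 d pair, while the other driven genes differed by at most 1.41-fold at 6 d, for Tef. Thus Nr1d2 gave different pictures of the 4 d 1a sample on 2 array types, at 952, against 1431 in Norm on A, and at 9351, against 7128 and 10223 in Norm on B.

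Of 30 other genes of the clock pathway, 27 were tested and 1 rose at 10 h relative to the longer exposures, against 0.477% of all probe sets that rose. This was Bhlhe40 (DEC1, a repressor that competes for E-boxes), at 1.13 (adjusted p = 0.0354) and at 1.04 relative to Norm (adjusted p = 0.427). Of 21 alternatives 12 ended its call (adjusted p up to 0.199), among them leaving out any 1 sample of the 4 exposures. The median of the 27 was 0.20, with 19 above 0. In the F test limma called 0 of the 27, against 1.24% of all probe sets, with 7 at an unadjusted p under 0.05, against 19.6%. The 4 with the smallest F test p were Bhlhe40, Klf9 (a glucocorticoid-responsive factor), Bhlhe41 (DEC2, a relative of Bhlhe40) and Usp2 (a deubiquitinase). At 2 d against Norm, Klf9 differed by -0.66, Bhlhe41 by -0.81 and Usp2 by -0.36, and at 6 d Usp2 differed by -1.72 (adjusted p = 0.333). Clock, the partner of Arntl, differed from Norm by 0.18 at 10 h and 0.49 at 2 d (adjusted p = 1.0 and 0.358), and was named after its values were seen.

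Glucocorticoids act on clock genes, Per1 among them, and some of the genes they induce were higher at 10 h than at the longer exposures. Of 16 such genes 15 were tested, Per1 and Klf9 included. Relative to the longer exposures 3 rose at 10 h (Cebpd, Mt1 by 1.92 and Mt2 by 1.77), against 0.477% of all probe sets that rose, and the median of the list was 0.60. Leaving out any 1 of the 10 h, 2 d or 6 d samples ended all 3 calls. Against Norm at 10 h limma called 0 of 15 (0.0% of all) and 7 had an unadjusted p under 0.05, against 6.11% of all probe sets, with the smallest p in Cebpd (1.46), Mt2 (2.13), Mt1 (1.88) and Fkbp5 (1.26). Cebpd was also called higher at 2 d relative to Norm by limma (1.01, adjusted p = 0.0458). There 1 of 15 was called, against 1.86% of all probe sets in either direction. In the F test 2 of 15 were called (Cebpd and Mt1), against 1.24% of all. The summed intensity of the 13 genes on A was 51526 and 57310 at 10 h and 29747 and 29098 at 2 d. It was 25905 and 27972 at 4 d, and 27564 and 29067 at 6 d, against 28634 in Norm. Their part in the 10 h levels of the clock genes was not tested. Per1 itself, at 0.35 ± 0.46 against Norm at 10 h, was not called.

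The probe sets whose pattern was most like that of a clock gene were found by Pearson's r of the log2 level over the arrays of its type, as a description, since the arrays of a group share their treatment. For Arntl, over 9 arrays and 7519 probe sets, the highest were Oxct1 (0.940), Alas2, Mrpl2, Itgb1bp1 and Emid1, and the lowest Xdh (-0.964), Map2k3 and Ankrd33b. Per2 on A, at -0.928, was the 6th lowest of these, Per1 (-0.869) the 41st, Nr1d2 on A (-0.805) the 131st and Dbp (-0.768) the 222nd, so 5 probe sets opposed Arntl more closely than any clock gene. For Dbp the highest were Pcsk4 (0.980), Asxl1, Hpgd, Adcy9 and Zfp932 and the lowest Col6a1 (-0.971), Ackr3 and Rflnb, with Nr1d2 on A at 0.836, Per1 at 0.820 and Nr1d1 at 0.818. For Nr1d2 on B, over 10 arrays and 7641 probe sets, the highest were Fam214a (0.978), Ralgapa1, Mosmo, Chd2 and Far1 and the lowest Sox12 (-0.976), Adck1 and Sfi1, with Hlf at 0.787.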

How the data were processed

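RNA of whole lung was measured on Affymetrix MG-U74 version 2 arrays. The deposited values are probe set intensities on a linear scale, and the software that made them is not given in the sources used here. With 2% of values left out at each end, array means lay between 800.2 and 800.4, so the intensities were used as already scaled. Samples were grouped by their titles, and 1 column, the A-titled Norm array in the B table, was left out. Values under the 40th percentile of an array type were set to it and log2 was taken. Control probe sets were left out, and those above the floor on at least 2 arrays (8392 on A, 8600 on B, 8809 on C) were tested with limma 3.58.1 in R 4.3.3 (5 group means, eBayes with trend, two-sided), adjusted by Benjamini-Hochberg over the 3 types together at a threshold of 0.05. The procedure was tested on simulated data with changes set at 2 d. It called 28.4% of the probe sets moved by 1 log2 unit and 98.0% of those moved by 3. Most changes of 1 log2 unit were thus missed.

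The text names every clock probe set, other clock genes that passed a test or had 1 of the 4 smallest F test p, up to 4 glucocorticoid-induced genes by p at 10 h, and for Arntl, Nr1d2 and Dbp the 5 probe sets with the highest and 3 with the lowest r. Symbols are those of the platform annotation and may be outdated. Type A had 10855 probe sets with 1 symbol, 396 with several and 1237 with none, type B 10603, 178 and 1696, and type C 7739, 150 and 4045. Members and lists were chosen with earlier results of these data known. Alternatives were 19 planned settings, among them quantile and median normalization, other floors and filters, the replicate letter as a block and leaving out each of 10 samples, and 2 added after seeing the data.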

Additional observations from a re-analysis of the deposited data

Results flagged for a closer look

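Per2 on A (93694_at) and Tef on A (160117_at) differed between the shortest exposure and the longer ones by a test of that difference. Per2 was at least 1.40 higher on the log2 scale at 10 h than in the mean of 2 d, 4 d and 6 d, and Tef was 1.01 higher. On both, each 10 h array lay above all 6 arrays of the longer exposures. Of all probe sets, 12.7% had both 10 h arrays beyond the longer exposures in either direction. The Per2 call was ended by 10 of 20 alternatives and the Tef call by 13 of 21. The C probe set of Per2 (168764_at), above the floor on every array, differed by 0.06 ± 0.25.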

How the results depend on the processing

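Counts of called clock probe sets moved with the settings, and so did counts over all probe sets tested. Of all, 480 were called for 2 d minus Norm, against 651 with the filter at 5 arrays and 319 without a variance trend. Only the groups compared gave 0 and leaving out the 4 d arrays 257. For 10 h minus the longer exposures 168 were called, against 74 with the floor at the 20th percentile and 38 with the replicate block. Leaving out the 2 d arrays gave 1 there and the 4 d arrays 578. In the F test 319 of all were called, against 320 with no filter, 672 with the filter at 5 arrays and 114 with the replicate block. Leaving out the 2 d arrays gave 0 there and the 4 d arrays 181. Leaving out 1 sample moved these counts over all probe sets too. The counts that follow are of the clock probe sets. For 2 d minus Norm, 1 was called, against 3 with the filter at 5 arrays, 2 without a variance trend, 2 with adjustment within an array type, 0 with only the groups compared, 0 to 4 without 1 sample and 4 without the 4 d arrays. Leaving out 10 h, 2 d or 6 d 1a or 1b gave 0, and leaving out 4 d 1a or 1b gave 4. For 10 h minus the mean of the longer exposures, 2 were called, against 1 with the floor at the 20th percentile, 0 with no filter, 1 without a variance trend, 0 with the replicate block, 0 to 4 without 1 sample, 0 without the 2 d arrays and 6 without the 4 d arrays. Leaving out 10 h, 2 d or 6 d 1a or 1b gave 0, 4 d 1a gave 1 and 4 d 1b gave 4. For 6 d minus 2 d, adjustment within an array type gave 1 call, against 0. For the F test, 2 were called, against 0 with no filter, 4 with the filter at 5 arrays, 1 with the replicate block, 0 to 5 without 1 sample, 0 without the 2 d arrays and 5 without the 4 d arrays. Leaving out 10 h, 2 d or 6 d 1a or 1b gave 0, and 4 d 1a gave 5. The mean index of the limbs at 4 d lay between -0.52 and 0.82 without 1 sample, against 0.15. Apart from the settings' own construction (fewer samples or other probe sets tested), the causes were not tested.

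The letters 1a and 1b are not stated to pair samples across groups. With them as a block, Per2 on A (adjusted p = 0.0506), Tef (0.0625) and Hlf in the F test (0.0622) were no longer called, and the block changed no other call.

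Directions of uncalled values turned, by more than 1 SE, in these cases. Leaving out single samples, where 4 d 1a or 1b decided the sign, gave 4 d minus Norm between -1.12 and 0.17 for Npas2, -2.49 and 0.13 for Dbp and -0.23 and 0.44 for Per2 on A. It gave 4 d minus 10 h between -0.18 and 1.12 for Npas2, -1.44 and 0.11 for Nr1d1, -0.70 and 0.081 for Nr1d2 on A and -1.92 and 0.70 for Dbp. Where Norm 1a or 1b decided, Nr1d2 on B lay between -0.0092 and 0.51 at 10 h and between -0.025 and 0.50 at 4 d, relative to Norm. Where 10 h 1a or 1b decided, Per2 on C lay between -0.14 and 0.56 for 10 h minus Norm, -0.29 and 0.41 for 10 h minus the longer exposures and -0.63 and 0.072 for 4 d minus 10 h. With the floor at the 20th percentile, 4 d minus 10 h became -0.26 for Npas2. In that setting 6 d minus 2 d became 0.87 for Per2 on A. This was not a turn, since both groups were at the floor in the main fit and the difference had no direction. Another 17 values of 10 comparisons turned by less than 1 SE, among them 4 d minus Norm without 4 d 1a for Arntl (-0.0073, against 0.25) and Nr1d2 on A (0.19, against -0.20). Low signal limits Dbp and Per2 on A, which lay at the floor on 4 and 5 of 9 arrays.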
